A study of Mus musculus with 4 samples.

Results

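The transcripts of heat shock proteins and their J-domain partners were compared between whole kidneys of Usp2 knockout (Usp2-KO) male mice and those of wild-type (WT) littermates. The group was taken by gene symbol from the array's annotation: symbols that are Hspa or Hspb followed by a digit, that begin with Hsp90 or Dnaj, or that are Hspd1, Hspe1 or Hsph1. This gave 70 genes of the 19934 genes tested, 45 of them J-domain genes. By the compartment where the protein is known to work, 26 were placed in the cytosol, 14 in the endoplasmic reticulum (ER) and 9 in mitochondria, and 21 had other or mixed places. Usp2 encodes a protease that removes ubiquitin from other proteins. All mice were C57BL6/N, 12 weeks old, housed in 12 h light and 12 h dark and dissected at Zeitgeber time 12. From 6 littermate pairs, kidney RNA of 3 mice at a time was mixed, which gave 2 WT and 2 Usp2-KO pools, and each pool was measured on 1 array. The series keeps littermates paired between pools, and WT and Usp2-KO pools of the same number are taken here to hold them. The labels do not state this matching by number, and every littermate value below rests on it. P-values here measure the spread between pools and not that between single animals. The labels do not say which part of Usp2 was deleted or by what allele.

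HSP70 proteins bind unfolded stretches of other proteins and release them in a cycle driven by ATP. J-domain proteins deliver clients to them and trigger ATP hydrolysis, HSP90 proteins act later on partly folded clients, and small heat shock proteins hold unfolded proteins without ATP. Each compartment has its own set, and each set has its own control of transcription. Heat shock factors act on repeats of GAA in cytosolic and mitochondrial chaperone promoters, and the factors of the unfolded protein response, ATF6 and XBP1, act on the ER stress response element. Chaperones are known in kidney for their high levels in the medulla, where cells face high salt and urea.

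Motifs for both kinds of factor were looked for in the promoters of the members. RefSeq promoter windows (GRCm38.p6) were matched for 57 of the 70 members, and the 250 bases before each start were searched on both strands. Members without a window, among them Hsp90aa1, Hspa8, Hspa9 and Hspa13, were not searched. The ER stress response element, written as CCAAT and CCACG with 9 bases of any kind between them, was in 3 of the 13 windows of ER members, in 0 of the 36 windows of cytosolic members and in 0.113% of all 32851 windows. The windows with the element belong to Hspa5, Hsp90b1 and Dnajc3, whose values by pool are given further on. They are shown 5′ to 3′ on the strand of the gene, with the element in capitals and 15 bases on each side.
Hspa5, chr2:34772010-34772058, plus strand: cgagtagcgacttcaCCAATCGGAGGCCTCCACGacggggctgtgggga
Dnajc3, chr14:118937812-118937860, plus strand: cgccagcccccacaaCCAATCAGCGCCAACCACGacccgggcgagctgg
Hsp90b1, chr10:86705518-86705671, minus strand: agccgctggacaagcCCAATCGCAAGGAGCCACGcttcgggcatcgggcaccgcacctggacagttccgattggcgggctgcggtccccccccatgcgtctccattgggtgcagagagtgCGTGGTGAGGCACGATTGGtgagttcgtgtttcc
Hsp90b1 held 2 copies, in opposite orientation. A match of letters is a description and does not show that a factor binds there.

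The heat shock element, searched as 3 units in turn (GAANNTTC, then 2 bases of any kind, then GAA), was in 0.466% of all windows. It was found in 3 matched members, the cytosolic J-domain gene Dnajb6 and the mitochondrial chaperonin genes Hspd1 and Hspe1, and in 0 of the 13 ER windows. Hspd1 and Hspe1 lie head to head, and the same stretch of chromosome 1 (chr1:55088044-55088091) is the promoter of both. It is shown on the strand of each gene, with the elements in capitals, which hold 2 overlapping matches.
Hspd1, minus strand: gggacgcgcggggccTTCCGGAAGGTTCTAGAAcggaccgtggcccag
Hspe1, plus strand: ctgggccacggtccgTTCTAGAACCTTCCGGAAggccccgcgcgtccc
Dnajb6, chr5:29735837-29735879, plus strand: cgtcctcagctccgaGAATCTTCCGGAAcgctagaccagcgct
A shorter form of 2 units (GAANNTTC), which the 3-unit form contains, was in 6.69% of all windows. It was in 8 of the 36 cytosolic windows, from 7 of 23 genes, and in 0 of the 13 ER windows. Those of Hspa1a, Dnaja1 and Hspb1 are shown because their values are described in detail.
Hspa1a, chr17:34972238-34972275, minus strand: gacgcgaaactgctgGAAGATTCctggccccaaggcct
Dnaja1, chr4:40722329-40722366, plus strand: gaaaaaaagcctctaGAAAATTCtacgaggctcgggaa
Hspb1, chr5:135887787-135887844, plus strand: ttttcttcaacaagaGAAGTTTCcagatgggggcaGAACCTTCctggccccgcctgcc
The form of 2 units in the other order (TTCNNGAA) was in 7.17% of all windows. It was in 5 of the 36 cytosolic windows and in 1 of the 13 ER windows, that of Dnajc10. It overlaps the 3-unit form too.

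The 4 arrays hold log2 expression values with medians between 7.44 and 7.46, and arrays correlated at 0.997 to 0.998 across genes, which are not independent replicates. Usp2 had log2 values of 11.63 and 11.71 in the WT pools and of 7.65 and 7.60 in the Usp2-KO pools. Markers of the kidney were at high levels in all pools, with Slc34a1 of the proximal tubule between 14.03 and 14.06 and Umod of the thick ascending limb between 13.36 and 13.45. No detection calls were used, and with 4 arrays the precision of each value is limited. In RNA of whole tissue, fewer cells of a type and less RNA per cell cannot be told apart.

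No member of the group differed between the genotypes beyond the spread of the pools by the adjusted test. In limma's comparison with Benjamini-Hochberg adjustment over all 19934 genes, 0 of the 70 members had an adjusted p under 0.05, and the lowest was 0.333. This rule called 0.00502% of all genes, and with littermate pools as a block 0 members were called, against 0.768% of all genes. At an unadjusted p under 0.05 there were 7 members, where the rule called 9.11% of all genes. Of these, 5 members (7.14%) were higher in Usp2-KO kidney, against 5.22% of all genes, and 2 members (2.86%) were lower, against 3.88% of all genes. The higher ones were Dnaja2, Hsp90aa1, Dnaja1, Hsp90b1 and Dnajc7, and the lower ones were Dnajc5g and Hspb1. With 2 pools against 2, the smallest two-sided p of an exact permutation test is 0.333, so none was run on single genes.

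The members' values lay mostly on the higher side in Usp2-KO kidney, by small amounts. Of the 70 members 53 were higher and 17 lower, with a median difference of 0.06 on the log2 scale (Usp2-KO minus WT), against -0.01 for all genes, and the largest difference of a member was 1.24-fold. The groups did not overlap for 32 members, where 38.9% of all genes did so. They were 25 members (35.7%) with Usp2-KO higher, against 19.8% of all genes, and 7 members with Usp2-KO lower, against 19.1% of all genes. Signal level moved with this count. Of all genes whose mean log2 value reached 8, 57.0% were higher in Usp2-KO kidney, as were 40 of the 47 members at that level. The groups did not overlap with Usp2-KO higher for 2409 of these 8951 genes and for 20 of these 47 members. With Usp2-KO lower they did not overlap for 1092 of the genes and 2 of the members. Among the 23 members below that level, 13 were higher and 10 lower, with a median of 0.01. The part of signal level in the result was not tested.

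Markers of some tubule cells also lay on the higher side. Thick ascending limb markers were higher for 6 of 7 genes with a median of 0.11, and their summed level was 14.81 and 14.79 in the WT pools and 14.86 and 14.82 in the Usp2-KO pools. Intercalated cell markers were higher for 6 of 8 genes with a median of 0.12, and their summed level was 12.69 and 12.67 in the WT pools and 12.84 and 12.75 in the Usp2-KO pools. Distal convoluted tubule markers were higher for 5 of 8 genes with a median of 0.11. Trpv5, Slc8a1 and Calb1 were at 0.55, 0.53 and 0.44, while Slc12a3, Pvalb and Klhl3 were lower, at -0.06, -0.08 and -0.04. The summed level of the 8 markers was 14.20 and 14.16 in the WT pools and 14.25 and 14.29 in the Usp2-KO pools. Proximal tubule markers were higher for 6 of 12 genes, with a median of 0.01. Collecting duct and inner medulla markers were higher for 7 of 11 genes and lower for 4, with a median of 0.05. Among the lower ones Slc14a2 was at -0.47 (adjusted p = 0.242 by limma, and 0.00199 with the littermate block). The part of these markers in the chaperone values was not tested.

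**Figure D1:**
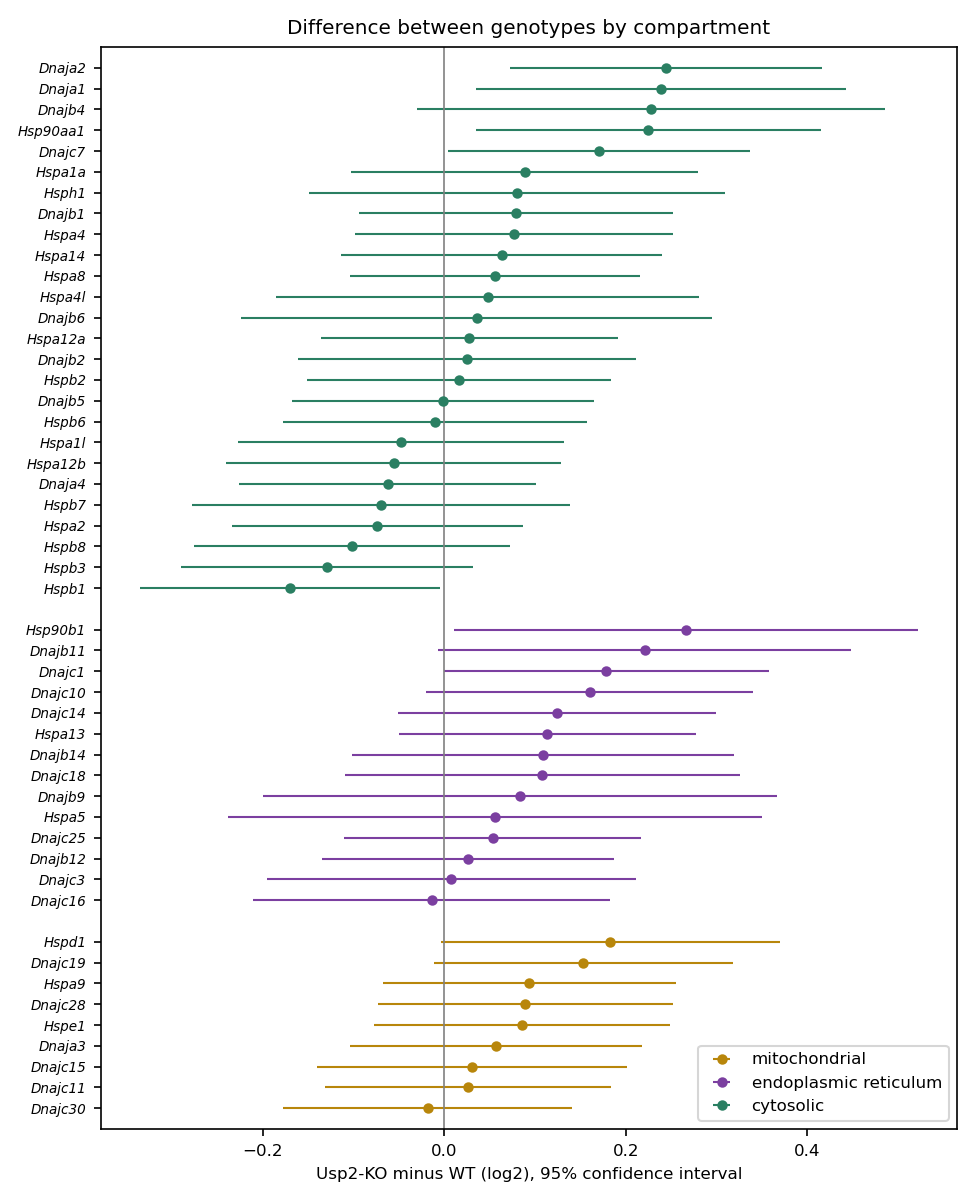
Difference between Usp2-KO and WT kidney on the log2 scale (x axis) for the 26 cytosolic, 14 ER and 9 mitochondrial members (y axis), each point with the 95% confidence interval of limma's fit on 2 against 2 pools. Most intervals include 0, 13 of the 14 ER members lie to the right of 0, and the cytosolic members lie on both sides.

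Among the cytosolic HSP70 genes, the levels were high and close together in all pools. Hspa8, the constitutive HSP70 that also uncoats clathrin vesicles, was the highest member, with log2 values of 13.60 and 13.57 in the WT pools and 13.66 and 13.62 in the Usp2-KO pools. Its Usp2-KO pools lay just above its WT pools, and the difference was 0.06 (SE 0.07, adjusted p = 0.863 by limma). The other rows of Hspa8 gave differences down to 0.01, and the gene has near-identical copies in the genome, so the assignment of its probes is uncertain. Hspa1a, the stress-inducible HSP70, had 10.56 and 10.47 in WT and 10.51 and 10.70 in Usp2-KO pools. The groups overlapped, and the difference of 0.09 (SE 0.08) was -0.00 without Usp2-KO pool 2. Hspa1a is nearly identical to Hspa1b, which was not analysed here. Hspa4, an HSP110 protein that exchanges nucleotide on HSP70, differed by 0.08. Hsph1, the other main HSP110, had 10.36 and 10.06 in WT and 10.25 and 10.33 in Usp2-KO pools, so that its WT pools lay further apart (-0.30, pool 2 minus pool 1) than the genotypes (0.08). Without WT pool 2 its difference was -0.07. Hspa2, Hspa1l, Hspa12b, Hspa14, Hspa12a and Hspa4l lay between -0.07 and 0.06.

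Hsp90aa1, the stress-inducible HSP90 of the cytosol, was among the members of smallest p. Its log2 values were 10.57 and 10.40 in the WT pools and 10.66 and 10.76 in the Usp2-KO pools. The groups did not overlap, and the difference was 0.22 (SE 0.08, 95% confidence interval 0.03 to 0.41, unadjusted p = 0.0256 and adjusted p = 0.468 by limma). All 3 of its rows on the array were higher in Usp2-KO kidney, by 0.21 to 0.24, though rows of a gene are not replicates and may read copies of it. In the littermates it differed by 0.09 in pool 1 and by 0.36 in pool 2. Without WT pool 2 the value was 0.14. Hsp90ab1 was not analysed here.

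The J-domain genes that serve HSP70 in the cytosol had 7 of 9 members higher, with a median of 0.08. Dnaja2, a general class A partner of HSP70, had log2 values of 10.11 and 10.05 in WT and 10.27 and 10.39 in Usp2-KO pools, a difference of 0.24 (SE 0.08, unadjusted p = 0.0107 and adjusted p = 0.393 by limma). Dnaja1, its relative, had 9.84 and 9.74 in WT and 9.92 and 10.14 in Usp2-KO pools, a difference of 0.24 (SE 0.09, adjusted p = 0.47). For both genes the groups did not overlap and the littermates differed in the same direction, by 0.16 and 0.33 for Dnaja2 and by 0.08 and 0.40 for Dnaja1. Dnaja1 was at 0.13 without Usp2-KO pool 2. Dnajc7, which passes clients between HSP70 and HSP90, had 8.53 in both WT pools and 8.75 and 8.65 in Usp2-KO pools, and differed by 0.17 (SE 0.07, unadjusted p = 0.0458). Its WT pools were nearly equal and both Usp2-KO pools lay above them. Dnajb4, a heat-inducible class B member, had 8.89, 8.77, 8.88 and 9.24 in the same order of pools. Here only Usp2-KO pool 2 stood above the others, and the difference of 0.23 was 0.05 without it. Dnajb1, the main heat-inducible J-domain protein, differed by 0.08 (SE 0.08), with littermate values of -0.00 and 0.16. Dnajb2, Dnajb5, Dnajb6 and Dnaja4 lay between -0.06 and 0.04.

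The small heat shock proteins lay on both sides of 0. Of the 8 genes with an Hspb symbol, 5 were lower and 3 higher, with a median of -0.04, which kept its sign under both scaling alternatives (-0.04 and -0.05). The median depended on single pools, at -0.003 with 4 higher and 4 lower when WT pool 2 was left out and at -0.08 when WT pool 1 was. It was -0.026 without Usp2-KO pool 1. Leaving out the second Usp2-KO pool again gave 4 higher and 4 lower, with a median of -0.05. Hspb1 (HSP25), which binds unfolded proteins and actin, had log2 values of 10.07 and 10.05 in WT and 9.84 and 9.94 in Usp2-KO pools. Both Usp2-KO pools lay below both WT pools, and the difference was -0.17 (SE 0.07, 95% confidence interval -0.34 to -0.01, unadjusted p = 0.0445 and adjusted p = 0.533 by limma). Both of its rows gave -0.17, and the littermates differed by -0.22 and -0.12. Hspb8, which works with the co-chaperone Bag3, differed by -0.10 and Hspb3 by -0.13, also without overlap of the groups. Hspb2 (0.02), Hspb6 (-0.01) and Hspb7 (-0.07) overlapped between the groups. Hspb9, a gene of the testis, differed by 0.03. Hspb11, which despite its symbol is a part of the transport machinery of cilia, differed by 0.12. These are short genes, with a median length of 2277 bases against 17748 for all genes. Across the 19849 genes with a length, the difference was higher for longer genes (Spearman rho 0.19), and rho was 0.30 across the 70 members. Genes are not independent replicates, and the part of length in these values was not tested.

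In the ER, 13 of 14 members were higher in Usp2-KO kidney, with a median of 0.11. The groups did not overlap for 6 members (42.9%) with Usp2-KO higher, against 19.8% of all genes, and for 0 with Usp2-KO lower, against 19.1%. All 14 had a mean log2 value of at least 8. Of the 8951 genes at that level, 2409 did not overlap with Usp2-KO higher and 1092 with Usp2-KO lower. Hsp90b1 (GRP94), the HSP90 of the ER that folds integrins and Toll-like receptors, had the largest difference. Its log2 values were 10.71 and 10.33 in the WT pools and 10.78 and 10.79 in the Usp2-KO pools. Both Usp2-KO pools and WT pool 1 lay close together, and WT pool 2 stood below them. The difference was 0.27 (SE 0.11, 95% confidence interval 0.01 to 0.52, unadjusted p = 0.0426 and adjusted p = 0.532 by limma), and 0.08 without WT pool 2. Dnajb11 (ERdj3), a lumenal partner of the ER HSP70, had 8.70 and 8.43 in WT and 8.71 and 8.86 in Usp2-KO pools. WT pool 2 was again the lowest, and the difference of 0.22 (SE 0.10) was 0.09 without that pool.

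Hspa5 (BiP), the HSP70 of the ER lumen and a main target of the unfolded protein response, was the highest ER member. Its values were 12.17 and 11.71 in the WT pools and 11.97 and 12.01 in the Usp2-KO pools. The highest and the lowest value were both in WT pools, and the Usp2-KO pools lay between them. The difference between genotypes was 0.06 (SE 0.13, adjusted p = 0.932 by limma) and -0.17 without WT pool 2. Dnajc3 (p58IPK), which holds back the stress kinase PERK, had 10.01 and 9.78 in WT and 9.87 and 9.94 in Usp2-KO pools, the same order of the 4 pools as Hspa5. Its difference was 0.01. Hspa13, an HSP70 of microsomes, had 8.76 and 8.83 in WT and 8.88 and 8.93 in Usp2-KO pools and differed by 0.11 (SE 0.07).

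The remaining lumenal J-domain genes were higher in both littermate comparisons or in the second alone. Dnajc1, a membrane protein with a lumenal J domain, differed by 0.18 (SE 0.08, unadjusted p = 0.0507), with littermate values of 0.07 and 0.29. Dnajc10 (ERdj5), a reductase that helps clear misfolded proteins, differed by 0.16 (SE 0.08), with 0.09 and 0.23. Dnajb9 (ERdj4), which brings the stress sensor IRE1 to BiP, had 10.17, 10.31, 10.12 and 10.53 in WT pools 1 and 2 and Usp2-KO pools 1 and 2. It did not share the low value in WT pool 2, and its difference of 0.08 was -0.12 without Usp2-KO pool 2. The members counted as ER membrane proteins (Dnajb12, Dnajb14, Dnajc14, Dnajc16, Dnajc18 and Dnajc25) had a median of 0.08 and lay between -0.01 and 0.12.

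**Figure D2:**
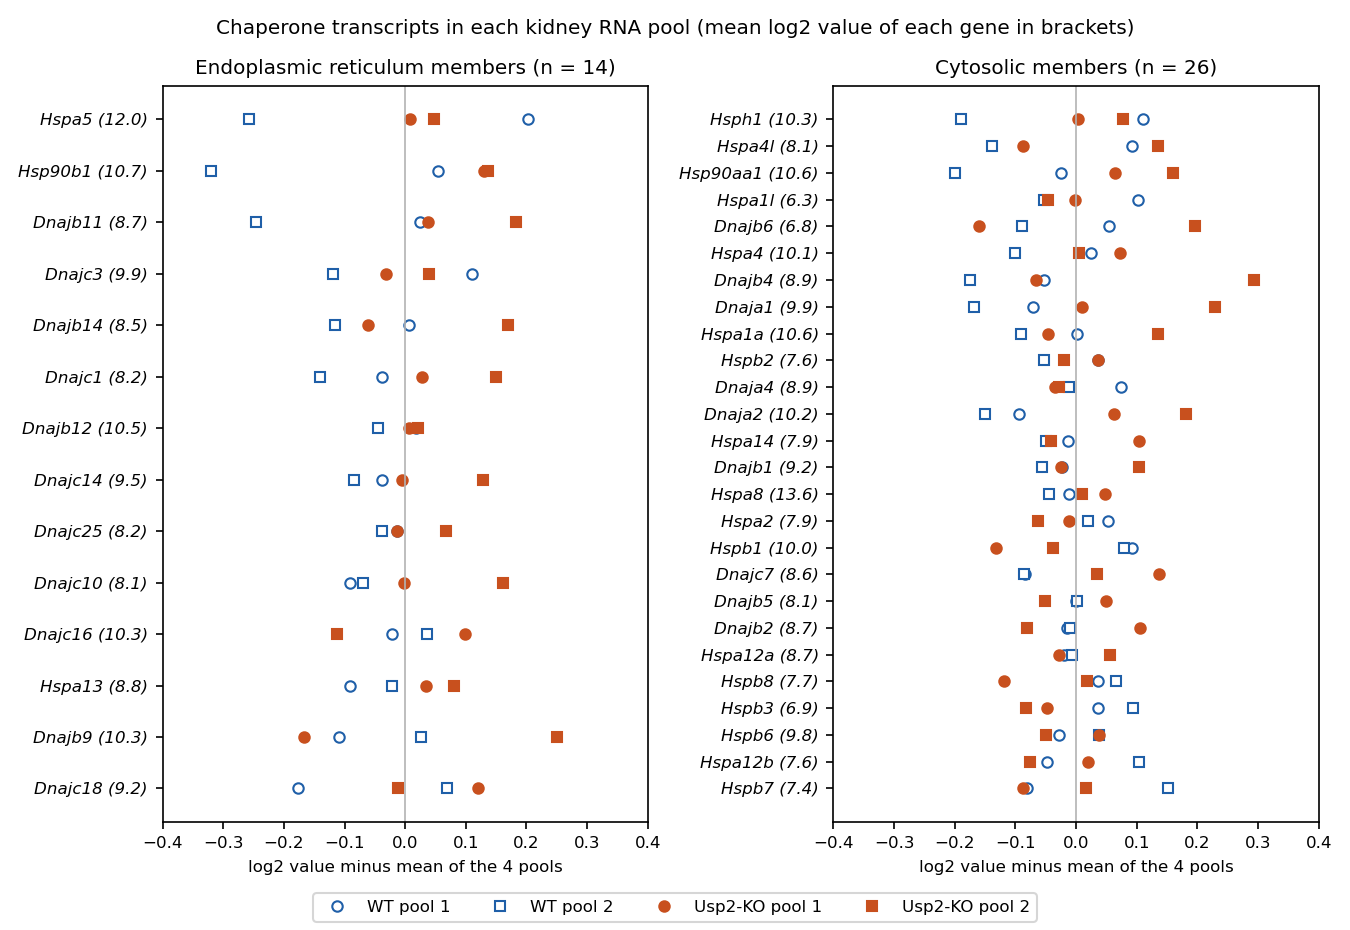
Log2 value of each ER member (left) and each cytosolic member (right) in each pool, as its distance from that gene's mean over the 4 pools (x axis), with genes (y axis) ordered by WT pool 2 minus WT pool 1, the most negative at the top, and the gene's mean log2 value in brackets. WT pool 2 (open square) is the lowest of the 4 pools for 9 of 14 ER members and 14 of 26 cytosolic members.

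The ER members had the higher median difference when set beside the cytosolic members. The median difference was 0.11 over the 14 ER members and 0.03 over the 26 cytosolic members, a gap of 0.08. Of the ER members 13 were higher and 1 lower, and of the cytosolic members 16 were higher and 10 lower. Of the cytosolic members 5 (19.2%) did not overlap with Usp2-KO higher and 5 (19.2%) with Usp2-KO lower, near the shares of all genes (19.8% and 19.1%). The summed level of the ER members was 13.82 and 13.64 on the log2 scale in the WT pools and 13.79 and 13.84 in the Usp2-KO pools, and that of the cytosolic members was 14.71, 14.65, 14.74 and 14.76. In both groups of genes WT pool 2 was the lowest. The lumenal members alone had 8 of 8 higher and a median of 0.14. These are counts over genes that share the same 4 arrays, and no test of the gap across pools was made.

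The gap depended on which members were set against each other and on the pools. It was 0.03 among members whose mean log2 value reached 8, where 17 cytosolic members had a median of 0.08 and 13 of them were higher, and 0.05 when the small heat shock proteins were left out. Both settings were chosen after the values were seen. In the pool 1 littermates, the median difference was 0.02 for ER and -0.00 for cytosolic members. In the pool 2 littermates it was 0.22 for ER and 0.04 for cytosolic members. The gap was larger in the second littermate comparison than in the first. It was 0.15 when the first Usp2-KO pool was left out and 0.04 when the second was. The ER median was 0.16 and 0.07 in these fits. The cytosolic median was 0.01 when Usp2-KO pool 1 was left out and 0.07 when WT pool 1 was.

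**Figure D3:**
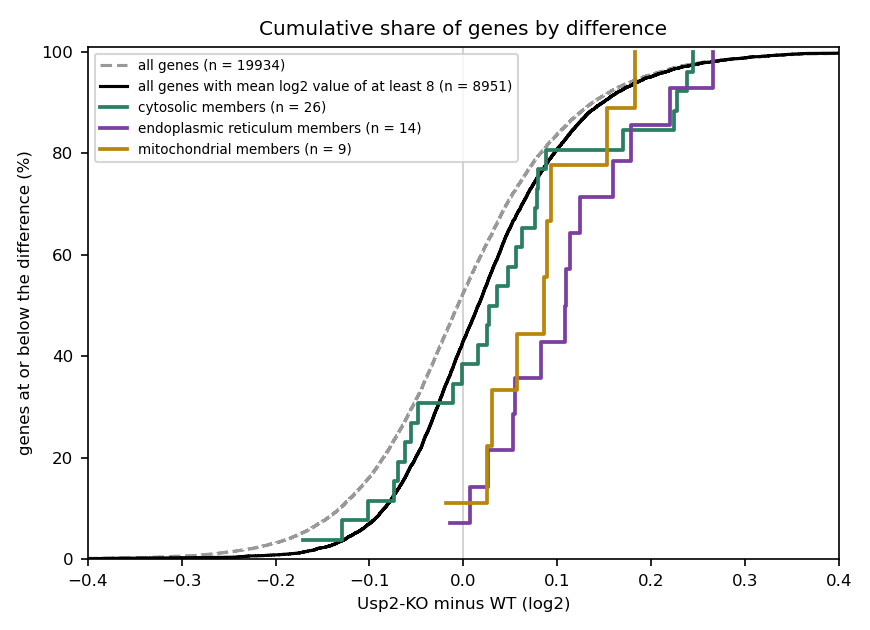
Share of genes (y axis, percent) whose Usp2-KO minus WT difference is at or below the value on the x axis (log2), for all 19934 genes, for the 8951 genes whose mean log2 value reaches 8, and for the cytosolic, ER and mitochondrial members. The curve of the cytosolic members of all levels has a median of 0.03, and that of all genes whose mean reaches 8 has one of 0.02. The 17 cytosolic members at that level, not drawn apart, had a median of 0.08. The curves of the ER (0.11) and mitochondrial (0.09) members lie to the right.

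Differences between WT pools were often larger than those between genotypes, among ER and cytosolic members as among all genes. A difference between 2 single pools varies more than one between means of 2 pools, so such counts are partly built in. The WT pools differed by more than the genotypes for 9 of 14 ER members (64.3%), for 12 of 26 cytosolic members (46.2%), for 3 of 9 mitochondrial members (33.3%) and for 53.6% of all genes. In WT pool 2 against WT pool 1, Hspa5 had the lowest value of all 70 members, at -0.46. It was followed by Dnajc5b, whose mean level was only 5.36, at -0.45, Hsp90b1 at -0.37, Hsph1 at -0.30 and Dnajb11 at -0.27. Dnajc3 was at -0.23. Hspa5, Hsp90b1 and Dnajc3, the genes whose promoters held the ER stress response element, were all lower in WT pool 2, as were 9 of all 14 ER members. Dnajb11 (-0.27), Hsph1 (-0.30), Sdf2l1 (-0.15) and Pdia4 (-0.14), whose searched windows lacked the element, were lower too. Dnajb9, also without it, was higher (0.13). A link between the element and these values was not tested. Of 30 other genes of ER folding and the unfolded protein response, 25 were lower in WT pool 2 than in WT pool 1, with a median of -0.12, against 0.01 for all genes. Pdia6, a disulfide isomerase, had 9.54 and 9.18 in the WT pools, and Creld2, a secreted target of the response, had 9.92 and 9.65.

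Other gene groups also differed between pools, and markers of immune cells and endothelium and immediate early genes set WT pool 2 apart. Markers of immune cells were higher in WT pool 2 than in WT pool 1 for 9 of 9 genes, with log2 summed signals of 11.78 and 11.90 in the WT pools and 11.81 and 11.73 in the Usp2-KO pools. Markers of endothelium were higher there for 6 of 7 genes, with 13.15 and 13.22 in the WT pools and 13.18 and 13.12 in the Usp2-KO pools. Immediate early genes, which respond within minutes to stress and handling, were higher there for 15 of 20 genes, with 13.46 and 13.65 in the WT pools and 13.55 and 13.45 in the Usp2-KO pools. Markers of pancreatic acinar cells, which are rich in ER chaperones, were lower in Usp2-KO kidney for 6 of 6 genes at low levels, with 9.32 and 9.31 in the WT pools and 9.21 and 9.20 in the Usp2-KO pools. Of 7 adipocyte markers 4 were lower and 3 higher in Usp2-KO pool 1 than in WT pool 1, and their summed level was low in that pool, with 10.36 and 10.36 in the WT pools and 9.95 and 10.38 in the Usp2-KO pools. The lowest log2 value of any row was 2.37, so a level above 0 does not show that a marker was detected. The part of these differences in the chaperone values was not tested.

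**Figure D4:**
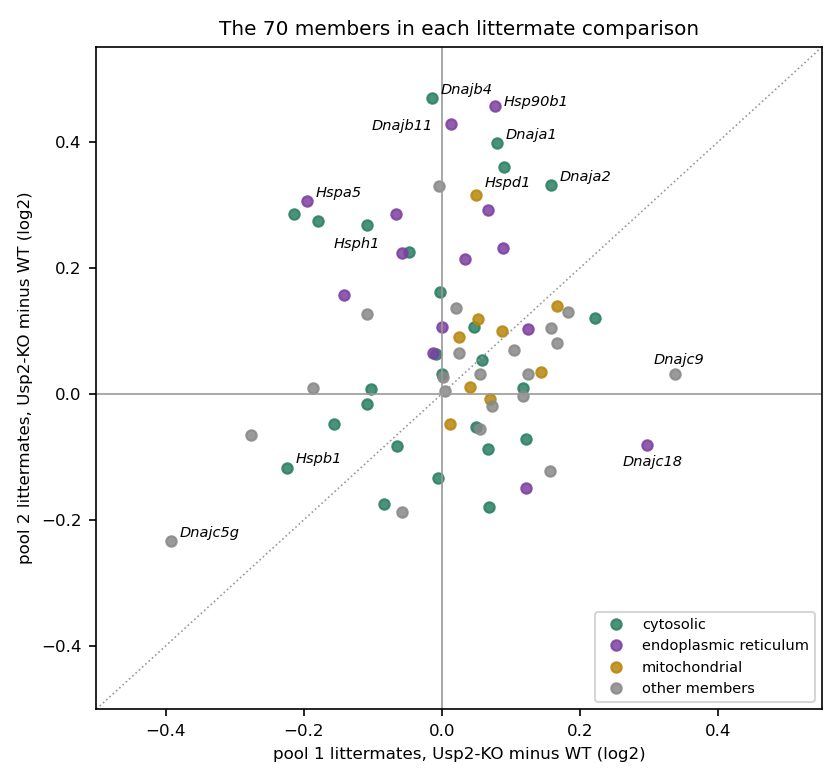
Usp2-KO minus WT difference (log2) of each of the 70 members in the pool 1 littermates (x axis) and in the pool 2 littermates (y axis), coloured by compartment, with equal differences on the dotted line. Hsp90b1, Dnajb11, Dnajb4 and Dnaja1 lie between 0.40 and 0.47 in pool 2 and between -0.01 and 0.08 in pool 1, and Hspa5 lies at -0.20 in pool 1 and 0.31 in pool 2.

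Mitochondrial members had a median SD between WT pools of 0.04, against 0.08 for ER and 0.05 for cytosolic members. Of 9 members 8 were higher, with a median of 0.09, and for 7 (77.8%) the groups did not overlap with Usp2-KO higher, against 19.8% of all genes. Among the 8 mitochondrial members whose mean log2 value reached 8 the count was 6, against 2409 of the 8951 genes at that level. Hspa9 (mortalin), the HSP70 that pulls proteins into the matrix, had log2 values of 12.04 and 11.99 in WT and 12.13 and 12.09 in Usp2-KO pools. Both Usp2-KO pools lay above both WT pools, with a difference of 0.09 (SE 0.07, adjusted p = 0.742 by limma). Hspd1 (HSP60), the matrix chaperonin, had 11.13 and 10.99 in WT and 11.18 and 11.31 in Usp2-KO pools, a difference of 0.18 (SE 0.08, unadjusted p = 0.0544). The second row of Hspd1 gave 0.27. Hspe1 (HSP10), the lid of the chaperonin and the head-to-head neighbour of Hspd1, had 11.20 and 11.21 in WT and 11.25 and 11.33 in Usp2-KO pools, a difference of 0.09. Both genes of the shared promoter were thus highest in Usp2-KO pool 2. Dnajc19, a part of the import motor at the inner membrane, differed by 0.15 (SE 0.07), with 0.17 and 0.14 in the littermates. Dnaja3 (Tid1), the matrix partner of mortalin, differed by 0.06, and Dnajc30 by -0.02.

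Among the members with other places, Dnajc5g had the smallest p of all 70. It is a relative of the cysteine string protein of vesicles, and its values were low on the array, at 5.59 and 5.62 in WT and 5.19 and 5.38 in Usp2-KO pools. Both Usp2-KO pools were lower, with a difference of -0.31 (SE 0.08, unadjusted p = 0.00459 and adjusted p = 0.333 by limma). Dnajb13, a protein of cilia and sperm tails, differed by -0.17 at a mean level of 6.36, also without overlap. Without detection calls, these low values cannot be told apart from background. Dnajc9, a histone chaperone, had 7.14 and 7.38 in WT and 7.48 and 7.41 in Usp2-KO pools. WT pool 1 was the lowest, and the difference of 0.18 was 0.07 without that pool. Dnajc2, which works at the ribosome, differed by 0.16, and Dnajc22, a membrane protein, by 0.13, each higher in both littermate comparisons.

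Dnajc13 (RME-8), which recycles cargo at endosomes, was read by 15 rows of the array. In its brightest row the values were 11.34 and 11.25 in WT and 11.33 and 11.58 in Usp2-KO pools, a difference of 0.16 (SE 0.09). The groups overlapped in that row, and the difference was 0.04 without Usp2-KO pool 2. All 15 rows gave a higher mean in Usp2-KO kidney, by 0.16 to 0.44, and 8 of them had an unadjusted p under 0.05, with a lowest adjusted p of 0.307 by limma. The mean of the rows differed by 0.24 (unadjusted p = 0.0207, adjusted p = 0.442). The rows share the same 4 RNA pools and are not replicates. Dnajc6 (auxilin), which uncoats clathrin vesicles with Hspa8, differed by 0.02, and Dnajc12, a partner of the aromatic amino acid hydroxylases, by 0.06.

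Partners and regulators of these chaperones showed a similar spread. Of 21 measured cytosolic co-chaperones and heat shock factors, 16 were higher and 5 lower, with a median of 0.07, and 0 passed the adjusted threshold. At an unadjusted p under 0.05 by limma, 4 of the 21 were higher and 1 lower, where the rule called 5.22% of all genes higher and 3.88% lower. Chordc1, an HSP90 co-chaperone, had 8.10 and 7.96 in WT and 8.26 and 8.31 in Usp2-KO pools and differed by 0.25 (SE 0.08, adjusted p = 0.389 by limma). Bag5, a nucleotide exchange factor, differed by 0.19, and Ppid, an immunophilin on HSP90, by 0.20. Ahsa1, which speeds the ATP cycle of HSP90, differed by 0.17. The lower gene was Cryab, a small heat shock protein under another symbol. The 8 measured subunits of TRiC, the chaperonin that folds actin and tubulin, were all higher, with a median of 0.12, and Cct8 differed by 0.26 (SE 0.07, adjusted p = 0.34). Of 10 other genes of mitochondrial protein quality 6 were higher and 4 lower, with a median of 0.02.

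The other genes of ER folding lay closer to 0. Of 30 measured genes 20 were higher and 10 lower, with a median of 0.02, and 0 passed the adjusted threshold. At an unadjusted p under 0.05 by limma, 1 of the 30 was higher and 1 lower, against 5.22% and 3.88% of all genes. The higher gene was Sec63, itself a J-domain protein of the ER translocon under another symbol, with 8.91 and 8.80 in WT and 9.08 and 9.14 in Usp2-KO pools and a difference of 0.25 (SE 0.08, adjusted p = 0.383 by limma). The lower gene was Hyou1, the HSP110 of the ER lumen. Pdia3, a disulfide isomerase, differed by 0.18 and Ero1a, an oxidase, by 0.17. The unfolded protein response genes Xbp1 (-0.04), Pdia4 (0.06) and Sdf2l1 (-0.12) lay on both sides of 0.

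Of the members, 4 lie on chromosome 9, as Usp2 does. In the order of measured genes Hspa8 lies 22 places from Usp2, Hspb2 lies 98, Dnaja4 lies 136 and Dnajc13 lies 502. Hyou1 lies 14 and Cryab 97 places away. Hspb2 and Cryab are immediate neighbours, and Hspb2 had 7.64 and 7.55 in WT and 7.64 and 7.58 in Usp2-KO pools, while Cryab had 11.15 and 11.17 in WT and 10.67 and 10.56 in Usp2-KO pools. The groups overlapped for Hspb2 (0.02) and stood clearly apart for Cryab (-0.54, adjusted p = 0.147 by limma). With the littermate block the adjusted p was 0.000156 for Cryab and 0.0181 for Hyou1 (-0.39). Neither was called in the main comparison, which had no block and gave Hyou1 an adjusted p of 0.286 by limma. Neither was called with the crossed pairing. Both of those fits called only 1 gene, Usp2. Other fits without a block called more genes, 18 with an intensity trend and 7 with each filter on signal. The values given here thus do not show that a call of Cryab or Hyou1 needs the littermate block. The part of genomic position in these values was not tested.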

How the data were processed

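The deposited table holds log2 values that the authors made with RMA, per the submitters' processing notes, and RMA corrects background, makes array distributions equal and summarises probe sets. An Affymetrix whole-transcript protocol was used on 300 ng of RNA from each pool, per the labels' protocols. Software version and genome build are not given in the sources used here. Of 28270 rows, 21780 had 1 gene symbol, and the row of highest mean over the 4 arrays was kept for each gene, which left 19934 genes. The 10 rows that pair a member with other symbols were left out, and 8 members had several rows. No filter on signal was applied.

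Genotypes were compared with limma 3.58.1 (lmFit, eBayes) in R 4.3.3 on 2 against 2 pools without a block, with Benjamini-Hochberg adjustment over all genes. The code was checked on simulated arrays. Per the series' design, WT and Usp2-KO pools keep the pairing of littermates, read here as pools of equal number, and a fit with this block was run too. Deviations from group means correlated at -0.121 between pools of equal number, across genes. Compartments were assigned by hand from general knowledge, and the members and lists were chosen with earlier results of these data known. The rule named 24 members by role, 2 of them not analysed here, the 8 further members of smallest p, a few related genes, and up to 4 genes of smallest p in other lists. Other genes were named after their values were seen. Alternatives were the block, a trend or robust prior, filters on signal, the mean of all rows, quantile normalization, centring, an adjusted p under 0.10 and leaving out each pool. Figures were drawn with matplotlib 3.10.9.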

Additional observations from a re-analysis of the deposited data

How the results depend on the processing

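No member passed the adjusted threshold in any alternative run, among them the littermate block, the crossed pairing (chosen after seeing the data), an adjusted p under 0.10 without a block, and each pool left out. Of all genes the fit without a block called 1, the crossed pairing 1, the littermate block 153, an intensity trend 18, each filter on signal 7, and the fits with a pool left out 1 to 2. With the replicate block the count of members past the threshold was 0, and it changed no call of a member, with a lowest adjusted p of 0.0879 by limma (Dnajc5g). With genes above the median of all genes only, the median difference was 0.078 for all members, 0.063 for cytosolic and 0.071 for mitochondrial members, and repeated quantile normalization gave 0.057 for mitochondrial members. The gap between ER and cytosolic members was 0.032 at a mean log2 value of 8 or more, a setting chosen after seeing the data. Over the fits that left out 1 pool each, the medians ranged from 0.039 to 0.067 for all members, 0.014 to 0.067 for cytosolic, 0.068 to 0.16 for ER and 0.057 to 0.089 for mitochondrial members, and the gap from 0.044 to 0.15. Some genes changed sign in these fits, with ranges of -0.17 to 0.29 for Hspa5, -0.12 to 0.29 for Dnajb9, -0.11 to 0.12 for Dnajc3, -0.071 to 0.23 for Hsph1, -0.029 to 0.061 for Hspb2, -0.002 to 0.18 for Hspa1a, -0.0075 to 0.13 for Pdia4 and -0.11 to 0.03 for Xbp1. Dnajc3 was also at -0.015 with repeated quantile normalization. The cause was not tested.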
